A study of Mus musculus with 6 samples.

Results

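The genes described here encode the proteins of the cytosolic ribosome. They were taken by symbol from the authors' deposited table: symbols that begin with Rpl or Rps and a digit, with Rplp0, Rplp1, Rplp2 and Rpsa, leaving out the S6 kinases (Rps6k) and pseudogene symbols. This gave 84 of 21540 gene records. Of these, 75 encode core ribosomal proteins, 44 of the large subunit and 31 of the small subunit. Another 8 are paralogs of core proteins, and Rps19bp1 encodes a protein that binds Rps19 and is not part of the ribosome. No symbol had more than 1 member record. Rpl13a and Rpl41 were not analysed here.

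RNA was sequenced from the nucleus accumbens of C57BL/6 mice, a region of ventral striatum that takes part in reward learning. The cocaine group had 3 libraries from mice injected intraperitoneally once a day, 7 times in all, with 20 mg/kg cocaine, and the saline group had 3 libraries from mice labelled as repeated saline controls. Both groups are labelled as taken 4 h into withdrawal. The labels give no age or sex, and do not say whether a library is 1 animal or pooled tissue, so the p-values may reflect technical spread. The deposited table holds 1 value per gene and group, in FPKM (fragments scaled to transcript length and to the number of mapped fragments), with the authors' log2 fold change of cocaine over saline, p-value and q-value. It holds no value per library, so no spread between replicates can be given, and read depth is unknown. In bulk tissue, fewer cells of a type and less RNA per cell cannot be told apart.

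A ribosome has a small subunit, which decodes the mRNA, and a large subunit, which joins amino acids. Each core protein is present once per ribosome, apart from the P1 and P2 proteins of the stalk, which form dimers. Cells tune these mRNAs together: most begin with a 5′ terminal oligopyrimidine (TOP) tract, through which mTOR signalling controls their translation. In striatal work, phosphorylation of Rps6 is a common readout of neuronal activity, and tagged Rpl10a or Rpl22 is used to pull down ribosomes from chosen cell types.

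The tissue label was checked first. All 9 medium spiny neuron markers examined, among them Drd1a, Drd2 and Ppp1r1b, had a tested value in the authors' deposited table, and their summed level was 3387 FPKM with saline against 3300.0 FPKM with cocaine. Summed markers moved less for oligodendrocytes, from 2442 to 2491 FPKM, and microglia, from 65.7 to 67.2 FPKM, each over 4 genes. In the authors' deposited table the 4 endothelial markers summed to 26.7 FPKM with saline and 21.1 FPKM with cocaine. The 4 blood markers summed to 299.9 and 259.9 FPKM, and the 3 cortical neuron markers to 56.2 and 50.1 FPKM. In each of these sets 1 marker passed the authors' q threshold, and it was lower after cocaine. They were Cldn5 of endothelium (log2 fold change -0.45, the authors' q = 0.00123) and Hba-a2 of blood (-0.26, the authors' q = 0.0335). For cortical neurons it was Slc17a7 (-0.15, the authors' q = 3.70e-05). The other markers of these sets also lay lower and did not pass. Summed astrocyte markers went from 419 to 496 FPKM over 4 genes, of which Slc1a2 held 377 and 453 FPKM (log2 fold change 0.26, the authors' p = 0.0345). Aqp4 had 12.5 and 14.3 FPKM (0.19, the authors' p = 0.0451) and Aldh1l1 17.6 and 17.9 FPKM (0.02, the authors' p = 0.880). Gfap lay lower after cocaine, with 12.1 and 10.8 FPKM (-0.16, the authors' p = 0.0166). Of 4 choroid plexus markers, Ttr rose from 0.668 to 10.8 FPKM (the authors' q listed as 0), Clic6 had 6.42 and 5.65 FPKM, and Folr1 and Kcne2 stayed below 1 FPKM in both groups. The part of cell composition in the results below was not tested.

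Ribosomal protein mRNAs differed little between the groups. Of 83 members marked as tested, 1 passed the authors' q < 0.05, and it was lower after cocaine, 1.20% against 1.23% of all 14959 tested records called in either direction and 0.709% called lower. At an unadjusted p under 0.05 the authors' deposited table held 4 members, 3 lower and 1 higher, or 4.82% against 5.76% of all tested records (3.74% lower and 2.02% higher). Shares this near those of all tested records are not a result about these genes. Other tested records in the range of FPKM of the core proteins, described below, had higher shares, 13.9% at that p and 3.64% at q < 0.05. A difference from them was not tested. The lowest q among the other tested members was 0.467. Among the 81 tested members that reached 1 FPKM in either group, the median deposited log2 fold change was -0.022, next to -0.021 over all 12825 tested genes of that level. With a trend against GC content and transcript length removed, the members' median was 0.014, so its sign depends on that step. The step also brings the median of all tested genes with a known GC content and length to 0. Centring alone, on the median of all tested genes, gave -0.00097 for the members.

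The spread among the members was narrow. Of the 81, 73 (90.1%) lay within 0.1 of 0 on the log2 scale, against 66.5% of all tested genes, and the range ran from -0.26 for Rps4y2 to 0.08 for Rpl21. Records in the same range of mean FPKM as the core proteins, from 32.8 to 739 FPKM, give a background of overlapping abundance. Their median with saline was lower, 59.4 FPKM against 122 FPKM for the core members. Members also had shorter transcripts, with a median length of 940 bases against 3157 over all tested genes. Like FPKM therefore need not mean like numbers of fragments. Of 2599 other genes in that range, 82.6% lay within 0.1 of 0, with a median of -0.020. In that range 13.9% of the other tested records had a deposited p under 0.05 and 3.64% a q under 0.05. These shares are a description, and whether ribosomal protein genes differ from other abundant genes was not tested. More members lay below 0 than above it, 55 against 26 (67.9%), beside 59.3% below 0 over all tested genes and 61.9% in the range of FPKM of the core proteins.

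**Figure D1:**
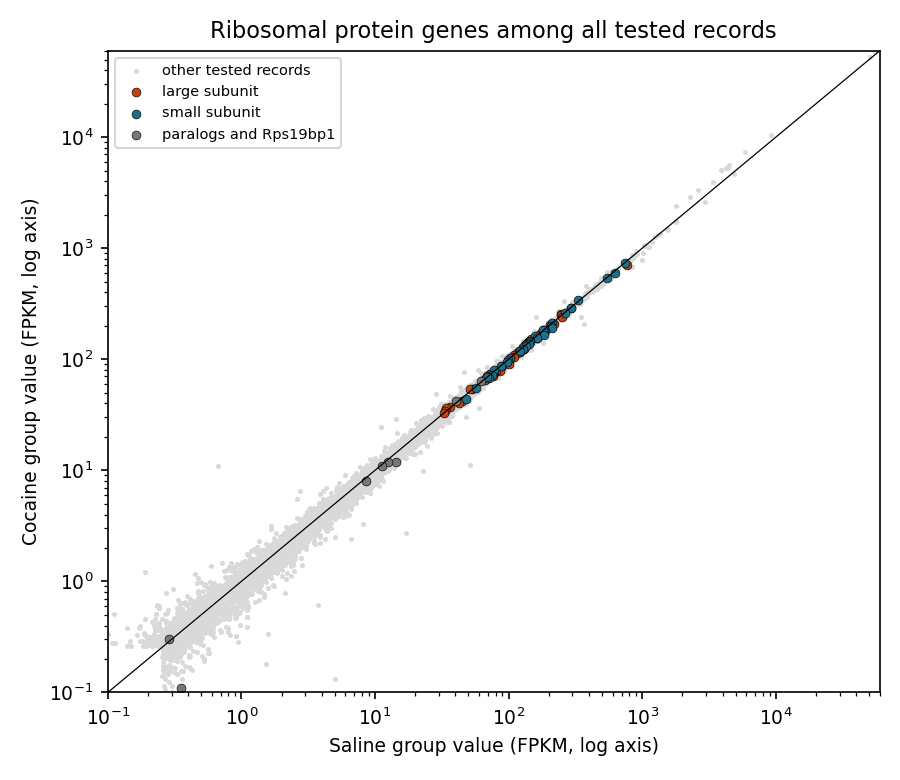
Group values in FPKM of saline (horizontal) and cocaine (vertical), both on log axes, for large subunit (orange), small subunit (blue) and other members (dark grey) over other tested records of at least 0.1 FPKM in both groups (light grey), with the line of equal values. The core members lie along the line between about 33 and 770 FPKM, at the high end of the table.

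In the authors' deposited table all 75 core members stood between 32.9 and 770 FPKM with saline and between 32.6 and 733 FPKM with cocaine. Their medians were 122 and 119 FPKM. Summed over the 84 members the level was 11923 FPKM after saline and 11662 FPKM after cocaine, a ratio of 0.978, or 2.13% and 2.05% of all FPKM. With mitochondrially encoded records left out of the total, the shares were 2.28% and 2.23%. The order of the core members was nearly the same in both groups (Spearman's rho = 0.998 across 75 genes, which are not independent and share the same libraries).

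The 10 most abundant members held 36.6% of the members' summed FPKM with saline and 36.5% with cocaine. Rplp1, an acidic protein of the stalk that recruits elongation factors, was first in the saline group at 770 FPKM and second in the cocaine group at 708 FPKM. Rps21 stood at 742.5 and 733 FPKM, and Rps29, a small zinc-finger protein, at 544 and 534 FPKM. Rps15, whose tail reaches toward the decoding site, had 621 and 598 FPKM. These 4 were the members above 500 FPKM in both groups, and held 22.5% and 22.1% of the sum.

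Among the next in rank were Rps14 (333 and 339 FPKM), Rpl8 (295 and 290 FPKM), Rps9 (265 and 259 FPKM), Rpl4 (248 and 255 FPKM) and Rpl32 (246 and 251 FPKM) in the authors' deposited table. The highest core member with saline, Rplp1, stood 23.4-fold above the lowest. Members with more near-identical gene copies had lower levels.

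Ribosomal protein genes have left many processed pseudogenes in the mouse genome, and reads can be shared between a gene and such copies. The coding sequence of 82 members was compared with all transcripts of GENCODE mouse release 21. A match at 95% identity or more over at least 90% of the coding sequence was found in another gene for 75 of them, with a median of 5 such genes per member. Rpl21 had the most, 56 genes. Across 74 core members the number of near-identical genes and the mean FPKM had a Spearman's rho of -0.63, given as a description. The 30 core members with fewer than 5 near-identical genes had a median of 180 FPKM with saline and 179 FPKM with cocaine, and the 44 with 5 or more had medians of 86.5 and 82.8 FPKM. With the near-identical records of the table added, an alternative chosen after seeing the data, the saline medians were 184 FPKM for the 30 and 156 FPKM for the 44. Whether reads were in fact shared was not tested.

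**Figure D2:**
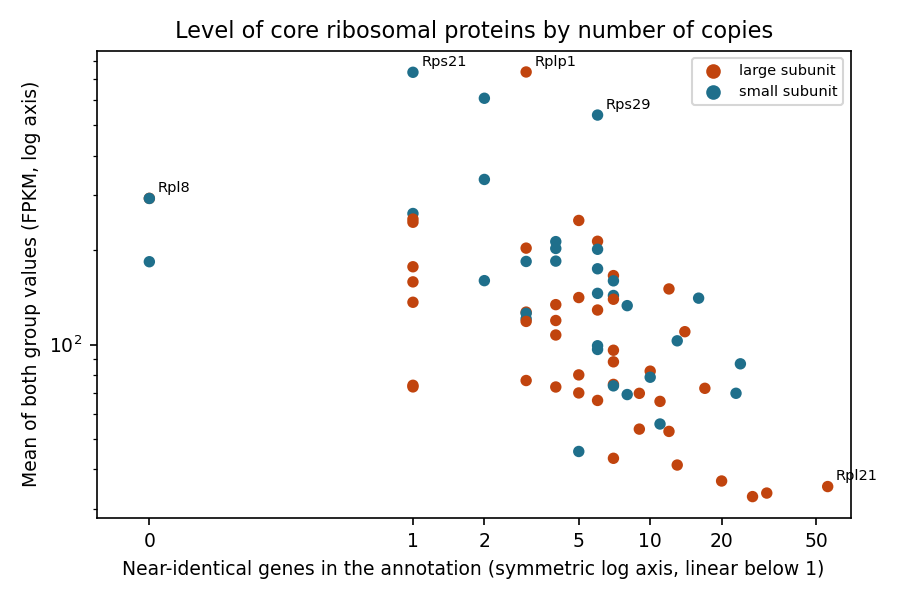
Mean of the saline and cocaine values in FPKM (log axis) against the number of near-identical genes in the annotation (symmetric log axis, linear below 1) for 74 core members, large subunit in orange and small subunit in blue. Rpl21, with 56 near-identical genes, lies near the bottom, and Rplp1 and Rps21 at the top.

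The deposited table itself holds 81 tested records that are near-identical to a member and lie outside the symbol rule, spread over 41 members. Most are predicted genes or pseudogene symbols. None of the 81 passed the authors' q < 0.05, and 0 had an unadjusted p under 0.05, beside 1.23% and 5.76% of all tested records. Rps27, a zinc-finger protein of the small subunit, had 188 FPKM after saline and 181 FPKM after cocaine, and the record Gm9846, whose transcript matches its coding sequence at 100%, had 188 and 181 FPKM as well. Rpl31, a protein near the exit of the nascent chain, had 51.8 and 53.9 FPKM in the authors' deposited table, while Gm8759, also a 100% match, had 154 and 162 FPKM. Levels of members with such records are therefore uncertain. With the near-identical records added, the summed level went from 15880 to 15550 FPKM, a ratio of 0.979.

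Rplp1 was the 1 member that passed. From 770 FPKM with saline it fell by 8.08% to 708 FPKM, with a log2 fold change of -0.12, the authors' p = 3.10e-08 and q = 1.10e-05 in the authors' deposited table. The near-identical record Gm10073 stood at 372 FPKM in both groups, with a log2 fold change of 0.00065 and the authors' p = 0.988 in the same table. Their sum went from 1143 to 1081 FPKM, a log2 fold change of -0.08. The fold change of Rplp1 was -0.05 with the trend against GC content and length removed. Rplp1 and Gm10073 share reads if the aligner could not place them, so the fall is of uncertain size, and the part of read sharing in it was not tested.

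The coding sequence of Rplp1 and the transcript of Gm10073 are shown because reads could be shared between them. In GRCm38, a later build than the authors' NCBIM37, Rplp1 lies at chr9:61913284-61914542 on the minus strand and Gm10073 at chr8:106572966-106573461, also on the minus strand. Over the 342 bases of the Rplp1 coding sequence they are 98.5% identical, with 5 differences and 0 gaps. Counted from 1 at the first coding base, with the base of Rplp1 first, these are C9T, A53G, C245T, A246G and C258T. Bases 169 to 258 of the coding strand, from GENCODE mouse release 21, hold 3 of them, in capitals:
Rplp1: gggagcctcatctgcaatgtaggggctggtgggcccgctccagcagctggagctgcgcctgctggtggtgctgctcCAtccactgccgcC
Gm10073: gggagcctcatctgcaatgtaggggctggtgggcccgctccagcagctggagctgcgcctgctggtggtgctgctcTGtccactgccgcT

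**Figure D3:**
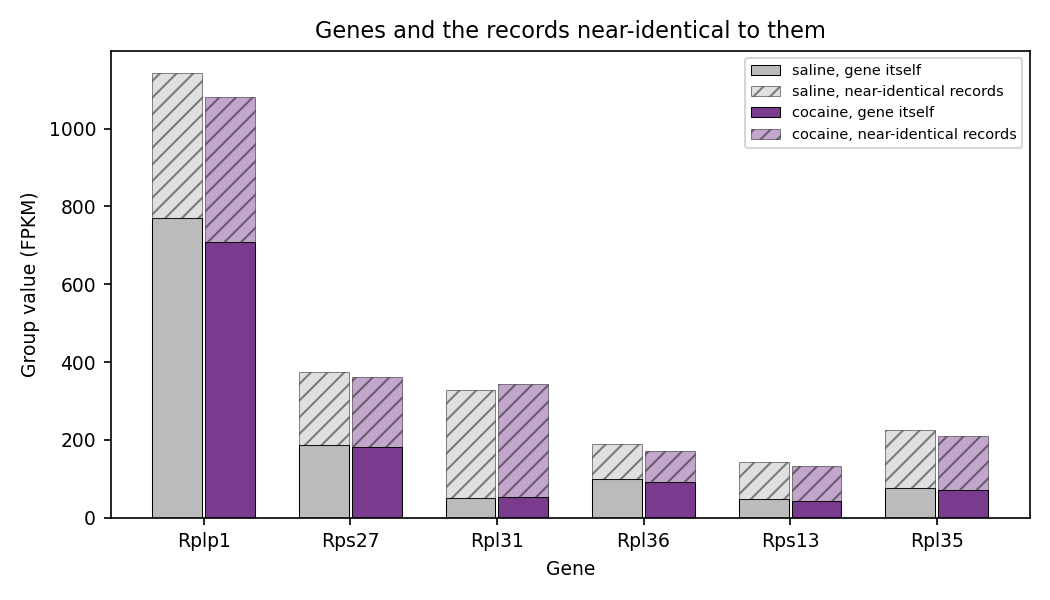
Group values in FPKM (vertical axis from 0) for 6 members, saline in grey and cocaine in purple, with the summed near-identical records hatched on top. The solid part of Rplp1 is lower after cocaine (708 against 770 FPKM), while its hatched part, Gm10073, is level at 372 FPKM.

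The other stalk proteins lay on the same side of 0 and did not pass. Rplp2, the partner of Rplp1, had 252 FPKM after saline and 239 FPKM after cocaine (log2 fold change -0.08, the authors' p = 0.172). Rplp0, which anchors the stalk to the ribosome and is often used as a reference gene in PCR, had 129 and 125 FPKM (-0.05, the authors' p = 0.276). Corrected for GC content and length, their log2 fold changes were -0.03 for Rplp2 and -0.0038 for Rplp0.

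Fold size and the authors' p-value did not rank the members alike. Of the members of at least 1 FPKM, 5 had a log2 fold change below that of Rplp1 and none of them passed. Rps15a had 213 and 190 FPKM (-0.16, the authors' p = 0.167) and Rps19, whose human counterpart is mutated in Diamond-Blackfan anaemia, 183 and 165 FPKM (-0.15, the authors' p = 0.0749). Rpl36 had 101 and 91.2 FPKM (-0.14, the authors' p = 0.0470) and Rps13 47.8 and 43.5 FPKM (-0.14, the authors' p = 0.105). The lowest, Rps4y2, is described with the paralogs. Rpl35, beside the exit tunnel, had 76.2 and 70.3 FPKM (-0.12, the authors' p = 0.396) and Rpl9 85.6 and 79.0 FPKM (-0.12, the authors' p = 0.0832). With the trend against GC content and length removed, the log2 fold change was -0.06 for Rpl36, -0.04 for Rpl35 and -0.10 for Rps19. After the same step it was -0.17 for Rps15a, -0.13 for Rps13, -0.10 for Rpl9 and -0.18 for Rps4y2. All the other values are those of the authors' deposited table. Of these members, Rps19 has no tested near-identical record in it, and the coding sequence of Rps4y2 was not compared. The others have such records.

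**Figure D4:**
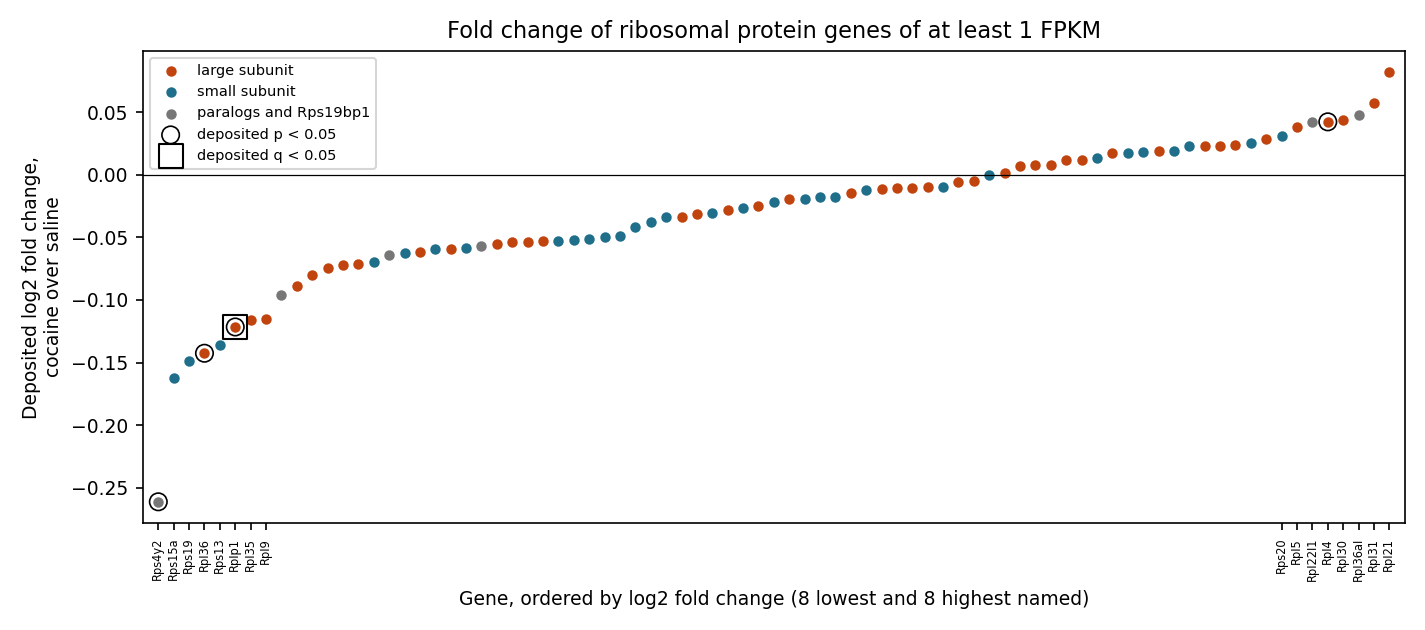
Deposited log2 fold change, cocaine over saline, of the 81 tested members of at least 1 FPKM in rising order, with the 8 lowest and 8 highest named, large subunit in orange, small subunit in blue and other members in grey. Circles mark a deposited p under 0.05 (4 members) and the square a deposited q under 0.05 (Rplp1), and most points lie between -0.1 and 0.1.

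At the upper end the fold changes were smaller. Rpl21, a large subunit protein, had 34.3 FPKM after saline and 36.3 FPKM after cocaine (log2 fold change 0.08, the authors' p = 0.528) and Rpl31 a log2 fold change of 0.06 (the authors' p = 0.255). Rpl4, whose loop lines the exit tunnel, had the only p under 0.05 on this side in the authors' deposited table (0.04, the authors' p = 0.0215, q = 0.762), with 248 and 255 FPKM. The other members among the 8 highest were Rpl30 (148 and 153 FPKM), Rpl5 (69.2 and 71.1 FPKM), Rps20 (158 and 162 FPKM) and the paralogs Rpl36al and Rpl22l1, with deposited p-values from 0.514 to 0.667. Each of these members lay at or under 0.06 on the log2 scale, apart from Rpl21. With the trend against GC content and length removed, Rpl22l1 went from 0.04 to -0.08 and Rps20 from 0.03 to -0.014, so their sign depends on that step.

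Both subunits had medians just below 0. Of the 44 large subunit members 27 lay below 0 and 17 above, with a median deposited log2 fold change of -0.011, and the 31 small subunit members gave 24 and 7, with a median of -0.030. An unadjusted p under 0.05 was listed for 3 of the large subunit, 2 on the lower and 1 on the higher side, and for 0 of the small subunit. These are 6.82% and 0%, beside 5.76% of all tested records and 13.9% of other tested records in the range of FPKM of the core proteins. These counts are too few to read as a result about either subunit. The summed FPKM of the large subunit went from 5679 to 5552 and that of the small subunit from 6093 to 5960. The ratio of large to small was 0.932 in both groups. A difference between the subunits was not tested.

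None of the following members, named for a known role or use, passed the authors' q < 0.05, beside 1.23% of all tested records. They are too few for this to be a result about them. Rps6, the main S6 kinase target, had 78.1 FPKM after saline and 79.3 FPKM after cocaine (log2 fold change 0.023, the authors' p = 0.694). Rpl5 and Rpl11, which with 5S rRNA can bind Mdm2 and so stabilise p53, had log2 fold changes of 0.04 (the authors' p = 0.593) and 0.023 (the authors' p = 0.823). Rps27a, made as a fusion with ubiquitin, had 69.0 and 69.6 FPKM (the authors' p = 0.863). Rpl10, which joins the large subunit late in its assembly, had 70.4 and 69.5 FPKM (the authors' p = 0.794). Rpsa, also known as the laminin receptor, had 56.8 and 54.8 FPKM (-0.05, the authors' p = 0.122). Rpl22, the protein tagged in RiboTag mice, had 73.0 and 73.6 FPKM (the authors' p = 0.903).

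Most paralogs of core proteins lay below the range of the core members, as far as FPKM can be compared between genes. Rpl22l1 and Rpl36al lay within that range. Rpl22l1, a paralog of Rpl22, had 40.7 FPKM after saline and 41.9 FPKM after cocaine (the authors' p = 0.667), and Rpl36al, a copy of Rpl36a, 62.3 and 64.4 FPKM (the authors' p = 0.514). Rps27l, known in human cells as a p53 target, had 11.3 and 10.9 FPKM (the authors' p = 0.822) and Rpl7l1 8.55 and 8.005 FPKM (the authors' p = 0.193) in the authors' deposited table. Rpl3l, the paralog of striated muscle, had 0.289 and 0.303 FPKM, and the testis paralogs Rpl39l and Rpl10l were at 0.355 and 0.110 FPKM and at 0.0012 and 0.0033 FPKM. The log2 fold change of Rpl39l was -1.69 as deposited (the authors' p = 0.287) and -0.29 with a pseudocount of 1. Rpl10l was the 1 member marked as not tested, and with 83 of 84 tested no other status occurred among the members.

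Rps4y2 had the lowest fold change among members of at least 1 FPKM, with 14.3 FPKM after saline and 11.9 FPKM after cocaine (log2 fold change -0.26, the authors' p = 0.0101, q = 0.467). It did not pass. The remaining member, Rps19bp1, had 12.5 FPKM after saline and 11.9 FPKM after cocaine (the authors' p = 0.565). The identifier of Rps4y2 is named Rps4l in the later annotation, where it is a transcribed processed pseudogene, so reads of Rps4x (144 and 143 FPKM, the authors' p = 0.717) could bear on it. The identifier of Rpl24 (115 and 114 FPKM, the authors' p = 0.863) carries the name Zbtb11 in that annotation, so what the record counts is uncertain, and it was left out of the sequence comparisons. Rps3a is named Rps3a1 there.

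The starts of the genes are shown as the feature by which these mRNAs are known to be controlled together. Promoter windows from RefSeq (GRCm38.p6) matched 62 members. In 13 of them (20.97%) a start is a C followed by 4 letters that are each C or T on the transcribed strand, against 3.01% of 27025 genes. The letters CCGGAAG, the core of a site for ETS factors, were in the 300 bases around a start on either strand in 25 members (40.3%), against 9.93% of all genes. These matches are descriptions, and annotated starts can be off by some bases. For 4 of the members described above, the 30 bases around the start follow, with the pyrimidine tract from the first transcribed base in capitals. Rps6 is at chr4:86857353-86857382 (minus strand), Rps15a at chr7:118116133-118116162 (minus), Rpl35 at chr2:39005117-39005146 (minus) and Rplp2 at chr7:141447636-141447665 (plus):
Rps6: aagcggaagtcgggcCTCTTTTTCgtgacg
Rps15a: ctctctttctgccatCTTCCCTCgccggtg
Rpl35: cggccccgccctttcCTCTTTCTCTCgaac
Rplp2: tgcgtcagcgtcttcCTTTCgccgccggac

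The tracts run over 9 bases in Rps6, 8 in Rps15a, 11 in Rpl35 and 5 in Rplp2. Fold changes of these 4 lay on both sides of 0, at 0.023, -0.16, -0.12 and -0.08 on the log2 scale. Rps15a and Rpl35 had been named for their low fold changes. The other members with such a start lay closer together, from -0.074 for Rpl15 to 0.018 for Rps18. Of 19 other mRNAs listed as TOP mRNAs, 0 passed the deposited q < 0.05 (1.23% of all tested records did), 14 lay below 0 and the median was -0.031. Among them Eef2, which moves the ribosome along the mRNA, was at 402 FPKM in both groups of the authors' deposited table and Tpt1 at 225 and 239 FPKM (the authors' p = 0.0509).

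Ribosomal proteins that the symbol rule misses include Fau and Gnb2l1. Fau, which carries the small subunit protein Rps30, had 159 and 149.99 FPKM (log2 fold change -0.09, the authors' p = 0.0396), and Gnb2l1, the small subunit scaffold Rack1, 299 and 286 FPKM (the authors' p = 0.215) in the authors' deposited table. Neither passed the authors' q < 0.05.

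The genes that build or drive the ribosome gave 0 calls at the deposited q < 0.05 as well, beside 1.23% of all tested records. Of 72 ribosome assembly genes tested, 2 (2.78%, beside 5.76% of all tested records) were lower at an unadjusted p under 0.05. They were the rRNA methyltransferase Fbl (15.5 to 13.3 FPKM, the authors' p = 0.00947) and the assembly factor Rrs1 (9.04 to 7.73 FPKM, the authors' p = 0.00595). The median log2 fold change of the list was -0.045, with 53 genes below 0. RNA polymerase I genes had a median of -0.027 over 19 genes and none at p under 0.05. Initiation factors had a median of -0.022 over 40 genes, with Eif4h (135 to 130.03 FPKM, the authors' p = 0.0264) the only p under 0.05 (2.5%). Elongation and termination factors had a median of -0.0013 over 15 genes, with Eif5a2 (7.98 to 8.78 FPKM, the authors' p = 0.0116) the only such p (6.25% of 16 tested records). Of 36 S6 kinase and mTOR genes, an unadjusted p under 0.05 was listed for 5 (13.9%, beside 5.76% of all tested records), of which 3 lay higher and 2 lower, and the median log2 fold change of the list was -0.033. Among the higher ones were Rps6kc1 (16.5 to 20.7 FPKM, the authors' p = 0.0247) and the mTOR complex component Rictor, and the lower ones were the translation inhibitor Pdcd4 and the mTOR inhibitor Ddit4, with deposited q-values of 0.820 or more.

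Both other large assemblies of abundant proteins had medians near those of the cytosolic ribosome. The 77 tested mitochondrial ribosomal protein genes had a median deposited log2 fold change of -0.029, with 54 below 0. An unadjusted p under 0.05 was listed for 0 of them, beside 5.76% of all tested records. The 75 nuclear respiratory chain genes had a median of -0.032, with 55 below 0 and 96.0% within 0.1 of 0. Of these 75, 5 on the lower and 1 on the higher side had an unadjusted p under 0.05, or 8%. Differences between these lists and the cytosolic ribosome were not tested.

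**Figure D5:**
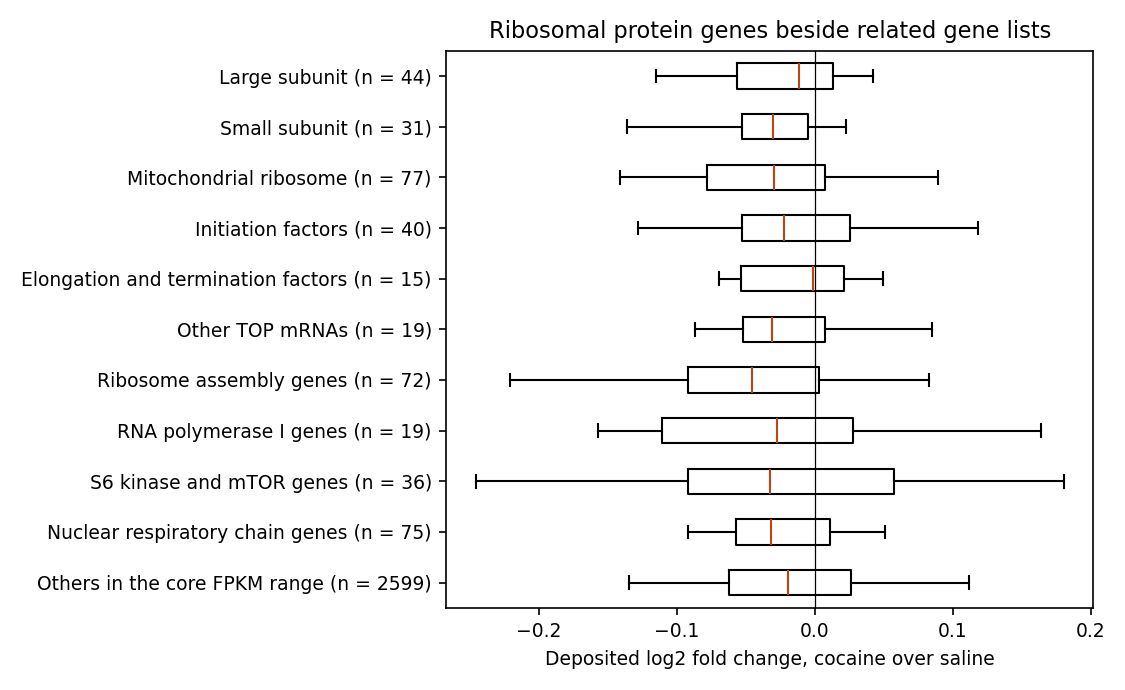
Deposited log2 fold change, cocaine over saline, by gene list: boxes span the quartiles, the orange line is the median and whiskers reach the 5th and 95th percentiles over genes of at least 1 FPKM. All medians lie between -0.05 and 0, and the ribosomal protein boxes overlap that of the other genes in their range of FPKM.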

How the data were processed

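RNA sequencing was done on 3 saline and 3 cocaine libraries. The submitters' processing notes name TopHat2 2.0.6, Cufflinks 2.0.2 and the build NCBIM37. Settings, annotation and strand were not stated there. The FPKM values were deposited by the authors as 1 value per group and gene, and the unit follows from the layout of a Cuffdiff gene table and is not written in the file. Each p-value and q-value, and each log2 fold change, was deposited by the authors and used as given, adjusted over all tested records. FPKM is relative, so a rise in abundant transcripts lowers the rest. Saline libraries were grouped by their treatment label, although their protocol text describes cocaine.

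Computed here (Python 3.11.15, pandas 2.3.3, blastn 2.17.0) were counts, medians, sums, sequence matches and a GC and length trend, removed as the median of 10 by 10 cells over 12565 genes with GENCODE mouse release 21. Rpl24 was left out of sequence comparisons, and Rps4y2 of the comparison of coding sequences. Calculations were tested on simulated data. Matches inside a transcript more than 2 times the coding length were not counted among the records. The members and lists were chosen with earlier results of these data known. Named genes were those with a deposited p under 0.05, the 10 most abundant, the 8 highest and 8 lowest fold changes, the paralogs and a fixed set. A few others are named as examples, chosen after their values were seen. The authors' deposited tests were the main tests, and limma, planned only for values per library, was not run. Some genes that the rule names are not reported here.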

Additional observations from a re-analysis of the deposited data

How the results depend on the processing

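No paired analysis was possible because the deposited table gives no value per library, and for the same reason leaving out each library in turn was not run. The number of members called was 1 at the deposited q < 0.05, at q < 0.1, with Benjamini-Hochberg adjustment recomputed, at a minimum of 1 or 5 FPKM and with 1 record a symbol, and 4 at an unadjusted p under 0.05. The median log2 fold change of the members lay between -0.0221 and 0.0141 over 11 alternatives, and was above 0 only with the GC and length trend removed. That step also took Rpl8, Rpl10, Rps9, Rps15, Rps21 and Rps29 from below 0 to between 0.0034 and 0.05, and Rpl22l1 and Rps20 to below 0. None of these had passed. Rpl10 and Rps21 also lay above 0, at 0.0015 and 0.0019, with centring alone on the median of all tested genes. The summed level of the members, cocaine over saline, lay between 0.978 and 0.982 over 4 alternatives. Copies, the core range of FPKM and the sum without Rplp1 were alternatives added after seeing the data. Read depth is unknown, so what change could have been detected was not determined.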
